A study of Mus musculus with 10 samples.

Results

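The chaperones and soluble proteases that keep proteins folded inside mitochondria were examined as 10 genes, chosen by name: Hspd1, Hspe1, Hspa9, Grpel1, Dnaja3, Trap1, Lonp1, Clpp, Clpx and Htra2. All 10 were found among the 24972 genes of the deposited gene tables, and all 10 passed the filter on low counts, as did 14378 genes in all. The libraries came from cerebral cortex of male C57BL/6 mice aged 2.5 months, perfused with cold PBS. There were 5 animals of the genotype Atad3 control, described as littermates, and 5 of the genotype Atad3 nKO, with 1 library per animal. Atad3a encodes an ATPase of the mitochondrial inner membrane. The labels give neither the meaning of nKO nor the driver line, the deleted exons or the alleles of the controls. The libraries were made from total RNA, and values count the reads of all cortical cells together, and fewer cells of a type cannot be told apart from less RNA per cell.

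Proteins enter the mitochondrial matrix unfolded. The matrix HSP70, encoded by Hspa9, pulls them in and holds them with the help of the nucleotide exchange factor Grpel1 and J-domain proteins such as Dnaja3; the barrel-shaped chaperonin of Hspd1 (HSP60) and its lid Hspe1 (HSP10) then fold them. Trap1 is the mitochondrial HSP90. Lonp1 is an ATP-dependent protease that degrades oxidised and misfolded matrix proteins, and Clpx is the unfoldase that feeds substrates to the peptidase Clpp. Htra2 is a serine protease of the intermembrane space, not of the matrix. Several of these genes, Hspd1 and Hspe1 among them, are known in cultured mammalian cells as targets of the mitochondrial unfolded protein response, in which misfolded proteins in mitochondria raise transcription of nuclear chaperone genes.

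Hspd1 and Hspe1 start close together on opposite strands of chromosome 1. The sequence around these starts is shown as a description, and its part in the values of the pair was not tested. RefSeq places the Hspe1 start on the plus strand at 55088148 and an Hspd1 start on the minus strand at 55087932. These point away from each other with 216 bases between them (GRCm38.p6, the assembly of mm10). A further Hspd1 start at 55088243 is nearer and lies 95 bases inside Hspe1 on the opposite strand. The library kit marks strand, but the sources used here do not give the strand setting of the quantification, so reads of the shared stretch could be split between the genes. Capitals mark a heat shock element, the site of heat shock factors, in the window from 250 bases before to 50 bases after the Hspe1 start (chr1:55087898-55088197, plus strand).
Hspe1: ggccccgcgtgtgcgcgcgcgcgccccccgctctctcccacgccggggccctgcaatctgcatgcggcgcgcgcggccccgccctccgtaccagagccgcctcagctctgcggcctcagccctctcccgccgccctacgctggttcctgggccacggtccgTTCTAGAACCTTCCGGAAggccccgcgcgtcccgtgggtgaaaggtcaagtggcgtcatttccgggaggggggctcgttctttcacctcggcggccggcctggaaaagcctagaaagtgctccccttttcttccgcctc
The element has 4 units, alternating TTC and GAA with any NN between neighbours, and begins 89 bases before the Hspe1 start. Windows with these 4 units made up 0.0152% of 32851 RefSeq promoter windows of 300 bases, 5 in all, of which 2 were the overlapping windows of this pair. A form with 3 such units on either strand, which lies within the longer one, was held by 0.603% of windows and, among the 9 windows of 8 members, only by those same 2. Hspa9 and Htra2 had no window used here, so the counts over member windows leave them out. A form of the element bound by CHOP and ATF factors, TTGCATCA on either strand, was searched as exact letters. It was held by 0.895% of all windows and by 0 of the 9 member windows. Other forms of CHOP sites were not searched. These are matches of letters, and they show neither binding nor its absence.

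The libraries held 14812200 to 24161000 counts, and the 10 genes were counted deeply, from 173 reads for Htra2 in its shallowest library to 6662 for Hspa9 in its deepest. Atad3a stood at 22.2 to 26.6 TMM-scaled CPM, counts relative to library size, in controls and at 8.95 to 14.4 CPM in nKO, without overlap, a log2 fold change of -1.04 (SE 0.12; edgeR quasi-likelihood test, adjusted p = 0.00634). Every listed marker of excitatory and inhibitory neurons, astrocytes, oligodendrocytes, microglia and endothelium passed the count filter, whereas Ttr and Folr1 of choroid plexus and the globins Hba-a1 and Hbb-bs did not. Control 1 (-46.8) and nKO 4 (29.8) lay at opposite ends of the first principal component, 33.6% of the variance. The difference between these libraries followed the GC content of the transcripts: across 14091 genes, which are not independent replicates, Spearman's rho was 0.78. The labels give no batch. Their running numbers are lower in all controls than in all nKO animals, but are not stated to record the order of handling. If they do, that order and genotype cannot be told apart.

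By length-corrected level the 10 genes fell into an abundant trio and a moderate remainder. In control cortex Hspa9 stood at 246 ± 26.1 TPM (a length-corrected level; SD, n = 5), Hspe1 at 243 ± 40.2 TPM and Hspd1 at 226 ± 27.4 TPM. These 3 genes lay at percentiles 94.5 to 95.1 of all tested genes and, with overlapping ranges, could not be ordered. Their share of the summed TPM of the 10 genes was 64.9% ± 2.63 in control and 67.1% ± 1.64 in nKO animals (SD, n = 5 each). Trap1 followed at 83.7 ± 8.31 TPM, below Hspd1 in 10 of 10 libraries. Dnaja3 (73.8 ± 7.75 TPM), Lonp1 (63.8 ± 5.11 TPM), Clpp (55.1 ± 6.79 TPM) and Clpx (44.5 ± 3.98 TPM) came next (SD, n = 5 each), each with a control range that overlapped its neighbour's. Grpel1, at 34.9 ± 2.08 TPM (SD, n = 5), lay below Clpx in 10 of 10 libraries, and Htra2, at 28.6 ± 3.24 TPM (SD, n = 5), lay below Grpel1 in 10 of 10. The summed TPM of the 10 genes ranged from 946 to 1207 in controls and from 1053 to 1161 in nKO, ranges that overlap. The mean log2 CPM over the 10 genes, which weights each gene alike, lay between 5.82 and 5.87 in controls and between 5.71 and 5.80 in nKO. These ranges do not overlap, but how often 10 genes drawn from all tested genes would do so was not computed. The group means of this measure differed by -0.098, which was not tested. Among the 10 are Clpp, Lonp1 and Htra2, for which control 1 was the highest and nKO 4 the lowest library in CPM.

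The genotypes were compared for the level of each transcript. None of the 10 genes passed a 5% false discovery rate in either direction with edgeR's quasi-likelihood test adjusted over all 14378 genes, where 0.0139% of all genes passed, Atad3a and Fam155a. The smallest adjusted p of the 10 was 0.820 (edgeR), DESeq2 and limma-voom likewise called 0 of the 10, and 2 had an unadjusted p under 0.05. Fitted differences were below 0 for 7 of the 10 genes, against 52.2% of all tested genes, and their median log2 fold change was -0.053 beside -0.0078 over all genes. The 95% interval lay within 1.5-fold of no change for 9 of 10 genes, against 75.7% of all tested genes, with Clpp the exception. The highest upper bound of the 10, that of Hspd1, was 1.17-fold.

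**Figure D1:**
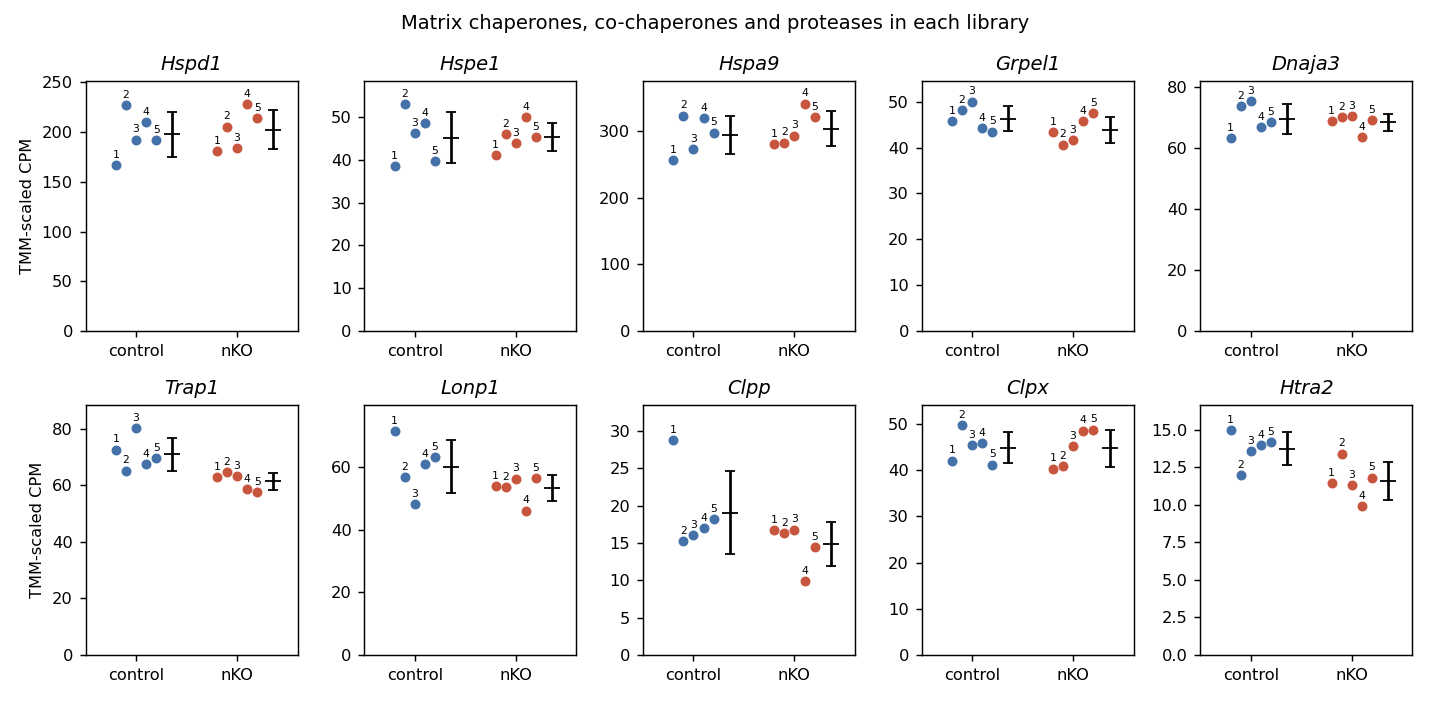
TMM-scaled CPM (vertical axes, from 0) of each gene in the 5 control (blue) and 5 nKO (red) libraries; digits are replicate numbers, and black bars are the mean ± SD. The chaperones Hspd1, Hspe1 and Hspa9 overlap between the groups, and the Trap1 points of nKO (57.5 to 64.5 CPM) all lie below those of controls (65.1 to 80.0 CPM).

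The chaperonin pair stood level in both genotypes. Hspd1 (NCBI gene 15510; mm10 chromosome 1, 55077833 to 55088243) had 167, 227, 192, 210.3 and 192 CPM in controls 1 to 5 and 181, 206, 184, 228 and 214 CPM in nKO 1 to 5. Control 1 was the lowest library and nKO 4 the highest, and the groups overlapped over most of their range. The estimated log2 fold change of 0.034 (SE 0.092) had a 95% interval from -0.16 to 0.23 and an edgeR adjusted p of 0.972. Hspe1 (NCBI gene 15528; mm10 chromosome 1, 55088148 to 55091317) had 38.6, 52.9, 46.1, 48.5 and 39.7 CPM in controls and 41.1, 46.0, 43.9, 49.99 and 45.3 CPM in nKO. All nKO values lay inside the control range, and the estimate of 0.0036 (SE 0.097) had a 95% interval from -0.21 to 0.21 and an edgeR adjusted p of 0.999. RefSeq names 5 pseudogenes of Hspd1, 7 of Hspe1 and 1 of Hspa9; 0 of the 13 are quantified in the deposited tables, so any reads from them could be counted with these genes.

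Lid and barrel transcripts kept a nearly fixed proportion. The ratio of Hspe1 to Hspd1 TPM was 1.07 ± 0.0778 in control and 1.08 ± 0.0381 in nKO animals (SD, n = 5 each), and the difference of the log2 ratio, 0.0066, was within the spread (exact two-sided permutation test, p = 0.913; adjusted over 4 ratios, p = 0.913). Across the 10 libraries log2 CPM of the pair correlated with Pearson's r = 0.88 (permutation p = 0.00076, adjusted over 4 pairs 0.00304) and Spearman's rho = 0.87 (permutation p = 0.00206, adjusted 0.00824). Without control 1 and nKO 4, the libraries farthest from the Hspd1 median, r was 0.81 over 8 libraries. Within groups r was 0.91 in controls and 0.92 in nKO, over only 5 libraries each. The points share library, depth and base composition, so the p does not show a tie particular to this pair. After removal of the group means, Hspe1 was at rank 93 of 14377 genes by its correlation with Hspd1.

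The HSP70 of the matrix and its cofactors also stood close to control. Hspa9 (NCBI gene 15526; mm10 chromosome 18, 34937414 to 34954351) had 257, 323, 273, 319 and 297 CPM in controls and 279.6, 282, 293, 341 and 321 CPM in nKO. The groups overlapped, with the lowest value in control 1 and the highest in nKO 4, and the estimate of 0.046 (SE 0.083) had a 95% interval from -0.13 to 0.23 and an edgeR adjusted p of 0.946. Grpel1 (NCBI gene 17713; mm10 chromosome 5, 36465185 to 36474077), which releases ADP from HSP70, had 45.7, 48.2, 50.001, 44.2 and 43.5 CPM in controls and 43.3, 40.6, 41.7, 45.8 and 47.6 CPM in nKO. Here 3 nKO libraries lay below every control, and the log2 fold change was -0.081 (SE 0.074; edgeR adjusted p = 0.870). Dnaja3 (NCBI gene 83945; mm10 chromosome 16, 4684070 to 4707695), which stimulates the HSP70 ATPase, had 63.3, 73.6, 75.5, 66.9 and 68.5 CPM in controls and 68.9, 70.0, 70.5, 63.6 and 69.1 CPM in nKO. All its nKO values lay inside the control range (log2 fold change -0.024, SE 0.071; edgeR adjusted p = 0.973).

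Cofactors per HSP70 did not differ beyond the spread. The ratio of Grpel1 to Hspa9 TPM was 0.143 ± 0.0184 in control and 0.131 ± 0.00577 in nKO animals (SD, n = 5 each; exact two-sided permutation test, p = 0.254, adjusted over 4 ratios 0.508). For Dnaja3 to Hspa9 it was 0.302 ± 0.0347 and 0.293 ± 0.0251 (SD, n = 5 each; exact permutation p = 0.714, adjusted 0.913). Neither correlation of a cofactor with Hspa9 across the 10 libraries passed the test: Pearson's r was 0.16 for Grpel1 (Spearman's rho 0.25; permutation p = 0.653 and 0.491, adjusted over 4 pairs 0.816 and 0.655) and -0.083 for Dnaja3 (rho -0.055; permutation p = 0.816 and 0.890, adjusted 0.816 and 0.890). Without control 1 and nKO 4 these r came to 0.25 and -0.30.

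**Figure D2:**
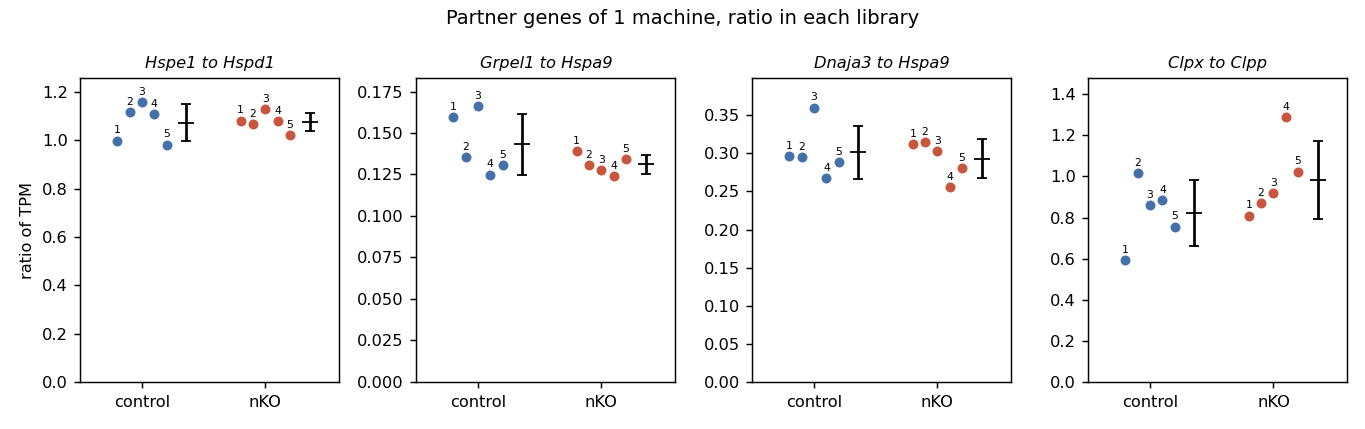
Ratio of TPM (vertical axes, from 0) of each pair of partner genes in the 5 control (blue) and 5 nKO (red) libraries, with replicate numbers and the mean ± SD in black. The Hspe1 to Hspd1 ratio stays between 0.982 and 1.16 in all libraries, and the Clpx to Clpp ratio has its lowest value in control 1 (0.591) and its highest in nKO 4 (1.29).

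Trap1, the mitochondrial HSP90, was the only one of the 10 genes whose groups did not overlap, where 1.38% of all tested genes did not and 0.675% were lower in nKO without overlap. Trap1 (NCBI gene 68015; mm10 chromosome 16, 4039971 to 4077840) had 72.5, 65.1, 80.0, 67.3 and 69.7 CPM in controls and 62.9, 64.5, 63.1, 58.6 and 57.5 CPM in nKO. The highest nKO library, nKO 2, lay just below the lowest control, control 2, and the nKO mean was 86.5% of the control mean. The estimate of -0.21 (SE 0.075) had a 95% interval from -0.37 to -0.049, an unadjusted p of 0.0145 and an edgeR adjusted p of 0.820, so the gene did not pass. In TPM the groups did not overlap either, with 83.7 ± 8.31 in controls and 75.2 ± 2.74 in nKO animals (SD, n = 5 each). The gap was narrow, from 76.9 TPM in nKO 2 to 77.3 TPM in control 1. The unadjusted exact permutation p was 0.00794, the smallest that 5 against 5 can give. Any such groups without overlap give this p, so it only restates the lack of overlap. The fitted value stayed between -0.24 and -0.16 when each library was left out, and was -0.20 without control 1 and nKO 4.

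The Trap1 promoter is shown as a description, and its part in the Trap1 values was not tested. In its window of 300 bases (chr16:4077761-4078060, minus strand, GRCm38.p6) capitals mark a cAMP response element (TGACGTCA, the same on both strands), which begins 47 bases before the start at 4077810.
Trap1: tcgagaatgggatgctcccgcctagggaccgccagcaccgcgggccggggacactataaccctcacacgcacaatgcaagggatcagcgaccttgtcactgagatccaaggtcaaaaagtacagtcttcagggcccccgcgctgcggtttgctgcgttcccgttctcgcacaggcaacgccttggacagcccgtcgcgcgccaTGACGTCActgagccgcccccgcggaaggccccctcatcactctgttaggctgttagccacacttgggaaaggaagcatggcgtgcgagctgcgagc
This element was held by 1.79% of all 32851 windows and by no other of the 9 member windows. The core of the site of NRF1, a regulator of nuclear genes for mitochondria, was found in the windows of Clpx and Grpel1 (GCATGCGC, either strand; 2.71% of all windows). Of the libraries' cell type markers, the summed CPM of 3 astrocyte markers was also without overlap, 3759 to 4305 in controls and 4340 to 5229 in nKO, of which the glutamate transporter Slc1a2 made up most (3716 ± 248 and 4383 ± 369 CPM; SD, n = 5 each). The other astrocyte markers had fitted log2 values below 0, which were -0.18 (SE 0.065) for the gap junction gene Gja1 and -0.049 (SE 0.11) for the water channel gene Aqp4, so that 2 of the 3 were below 0 with a median of -0.049. Among markers of other cells, Tbr1 of excitatory neurons had 0.57 (SE 0.14) and Flt1 of endothelium 0.32 (SE 0.099), and none of these markers passed 5% (edgeR adjusted p = 0.820 for Slc1a2, Gja1, Tbr1 and Flt1). The part of these markers in the Trap1 values was not tested.

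Of the proteases, Clpp, Lonp1 and Htra2 had fitted values below 0 and Clpx one near 0, and none passed the test. Without control 1 and nKO 4 the values of Clpx (-0.067), Lonp1 (-0.066) and Clpp (-0.057) were alike, and that of Htra2 was -0.17. For Lonp1, Clpp and Htra2 control 1 was the highest and nKO 4 the lowest library in CPM. The direction of their shift was therefore set by which libraries were left out. Lonp1 (NCBI gene 74142; mm10 chromosome 17, 56614297 to 56626903) had 71.5, 56.7, 48.2, 61.0 and 63.1 CPM in controls and 53.8, 53.5, 56.3, 46.0 and 56.5 CPM in nKO. Control 1 was the highest and nKO 4 the lowest library, and control 3 lay below 4 of the nKO libraries. The estimate of -0.17 (SE 0.10) had a 95% interval from -0.39 to 0.045 and an edgeR adjusted p of 0.826, and came to -0.10 without control 1. Clpp (NCBI gene 53895; mm10 chromosome 17, 56990264 to 56996371) had 28.8, 15.2, 16.1, 17.0 and 18.2 CPM in controls and 16.8, 16.3, 16.8, 9.91 and 14.4 CPM in nKO. Control 1 stood far above all other libraries and nKO 4 far below them, and the remaining values of the groups overlapped. Its log2 fold change of -0.36, with SE 0.19, a 95% interval from -0.77 to 0.052 and an edgeR adjusted p of 0.820, was the lowest of the 10 genes and came to -0.16 without control 1. In TPM, Clpp stood at 55.1 ± 6.79 in control and 46.9 ± 6.21 in nKO animals (SD, n = 5 each; exact permutation p = 0.0476, unadjusted), with overlapping groups.

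Clpx (NCBI gene 270166; mm10 chromosome 9, 65294251 to 65330658) had 42.1, 49.7, 45.5, 46.0 and 41.2 CPM in controls and 40.4, 40.9, 45.2, 48.6 and 48.8 CPM in nKO. The groups overlapped, with 2 nKO libraries below every control (log2 fold change -0.0045, SE 0.084; edgeR adjusted p = 0.997). The ratio of Clpx to Clpp TPM was 0.822 ± 0.159 in control and 0.982 ± 0.189 in nKO animals (SD, n = 5 each; exact two-sided permutation test, p = 0.198, adjusted over 4 ratios 0.508). The log2 difference of this ratio, 0.26, came to 0.15 without control 1, 0.16 without nKO 4 and 0.043 without both. The ratio was lowest in control 1 and highest in nKO 4, so leaving them out could only lower the difference. Unfoldase and peptidase ran in opposite directions across the 10 libraries, with Pearson's r = -0.57 and Spearman's rho = -0.59, which did not pass (permutation p = 0.0742 and 0.0803, adjusted over 4 pairs 0.148 and 0.161; r = -0.72 without control 1 and nKO 4).

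Htra2 (NCBI gene 64704; mm10 chromosome 6, 83051266 to 83054571) had 14.98, 11.98, 13.6, 14.0 and 14.2 CPM in controls and 11.5, 13.4, 11.3, 9.91 and 11.8 CPM in nKO. Of the nKO libraries 4 lay below every control, and nKO 2 lay within the control range. The estimate of -0.25 (SE 0.11) had a 95% interval from -0.47 to -0.018, an unadjusted p of 0.0362 and an edgeR adjusted p of 0.820. Htra2 and Trap1 were the 2 members with an unadjusted p under 0.05, a level that 5.65% of all tested genes reached and 2.29% reached with a lower value in nKO. Which genes were under 0.05 depended on the fit: with effective length offsets the unadjusted p was 0.0616 for Htra2 and 0.0364 for Clpp, and with each library's GC trend removed it was 0.0766 and 0.0105 (edgeR). For Htra2 it was 0.0510 to 0.0777 when control 1, 4 or 5 or nKO 1, 3, 4 or 5 was left out. In TPM, Htra2 stood at 28.6 ± 3.24 in control and 26.1 ± 1.71 in nKO animals (SD, n = 5 each; exact permutation p = 0.183, unadjusted).

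**Figure D3:**
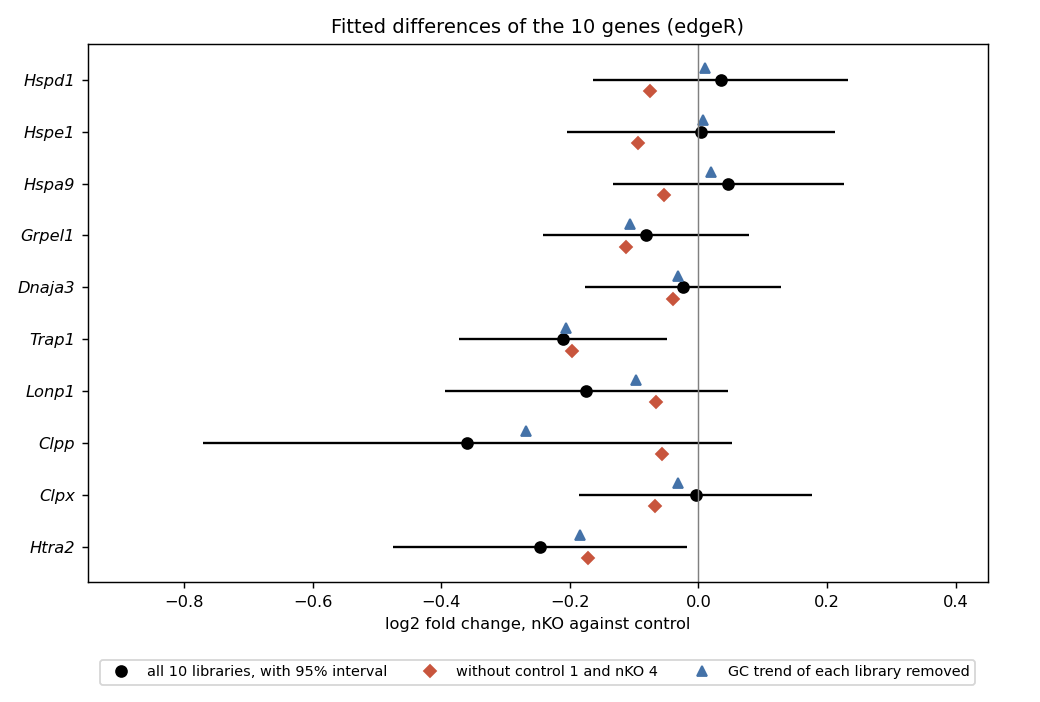
Log2 fold change of nKO against control (horizontal axis) for each gene, with the edgeR estimate and its 95% interval in black, the estimate without control 1 and nKO 4 as red diamonds, and the estimate after removal of each library's trend on GC content as blue triangles. Trap1 keeps its place (-0.21, -0.20 and -0.21), whereas Clpp moves from -0.36 to -0.057 and -0.27. For Clpp control 1 was the highest library and nKO 4 the lowest, so leaving both out could only raise its value.

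GC content and effective length moved with the protease values. Transcripts of Clpp (57.8% GC), Lonp1 (57.3%) and Htra2 (57.1%) were in the highest GC quartile of tested genes, where the median log2 fold change was -0.095, against 0.019 in the lowest quartile. Trap1 (52.1% GC), Hspe1 (51.7%) and Dnaja3 (50.5%) lay in the third quartile (median -0.016), and Hspa9 (45.9%), Hspd1 (46.8%), Grpel1 (47.3%) and Clpx (44.6%) below it. The effective length in the deposited tables, by which TPM is divided, was 1041 bases for Clpp in control 1, 730 bases in nKO 4 and 812 to 906 bases elsewhere. For Lonp1 and Htra2 control 1 was likewise the highest and nKO 4 the lowest library. With offsets for effective length the log2 fold changes were -0.30 for Clpp, -0.12 for Lonp1, -0.18 for Htra2 and -0.21 for Trap1, and with each library's GC trend removed, an alternative chosen after seeing the data, they were -0.27, -0.097, -0.18 and -0.21. None of the 10 genes passed 5% in either fit (lowest edgeR adjusted p 0.466 and 0.389). Transcript length also moved with the fold change over all genes (Spearman's rho 0.30): Hspe1, Clpp and Htra2 lay in the shortest quartile, with a median of -0.070, and 0 members in the longest, with 0.047.

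Between libraries, Hspd1, Hspe1, Hspa9 and Clpx varied together, and Clpp, Lonp1 and Htra2 varied together. After removal of the group means, log2 CPM of Hspd1 correlated with that of Hspa9 at r = 0.89, of Hspe1 at r = 0.89 and of Clpx at r = 0.73 over 10 libraries. Clpp followed Lonp1 (r = 0.80) and Htra2 (r = 0.73) and ran against Hspd1 (r = -0.86) and Hspa9 (r = -0.81). Trap1 ran against Hspa9 as well (r = -0.81). Of the 45 pairs 20 were positive, with a median r of -0.11. Grpel1 had r = 0.69 with Clpx, 0.39 with Hspe1, 0.36 with Hspd1 and 0.28 with Hspa9. These are descriptions over libraries that share depth and composition. No GC trend was removed for them, and the GC content of each gene is given above. Dnaja3 followed neither set, with r from -0.47 to 0.33 with the other members.

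**Figure D4:**
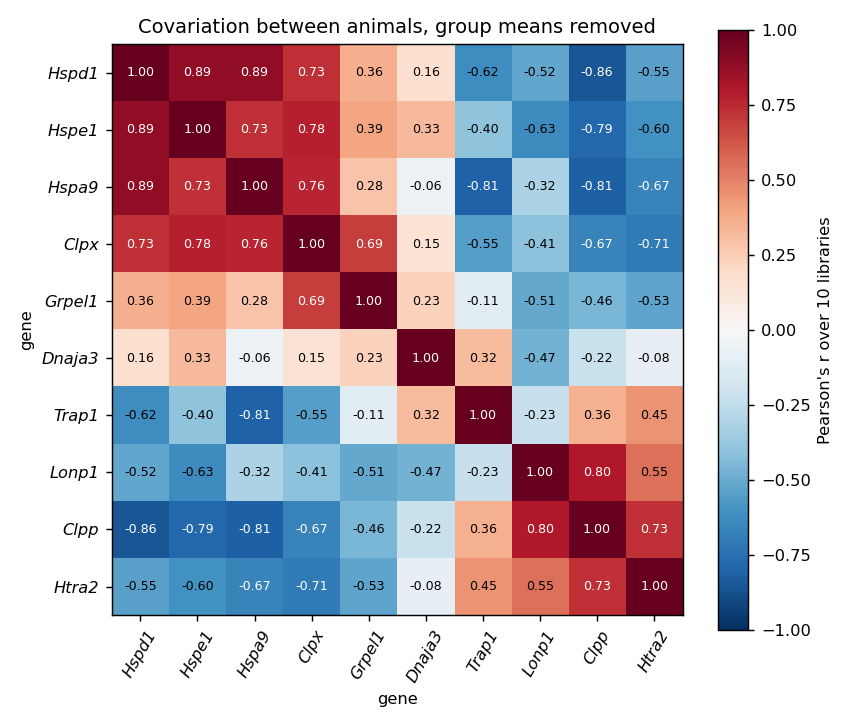
Pearson's r between genes (rows and columns) over 10 libraries after removal of the group means, from -1 (blue) to 1 (red). Hspd1, Hspe1, Hspa9 and Clpx form a positive block (0.73 to 0.89) that runs against Clpp (-0.67 to -0.86).

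Genes outside the 10 with a pattern most like that of Hspd1, by the same measure over 14377 genes, were Rsrc2 (r = 0.98), Tcp1 (0.97), Cct8 (0.97), Nol8 (0.96) and Baz1b (0.96). Tcp1 and Cct8 encode subunits of TRiC, the chaperonin of the cytosol. Tcp1 stood at 247 ± 22.2 CPM in controls and 254 ± 19.9 CPM in nKO, and Cct8 at 205 ± 21.3 and 210.1 ± 17.6 CPM (SD, n = 5 each). Hspa9 was at rank 88 of this order, Hspe1 at rank 93 and Clpp at rank 14097.

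Isoforms were compared next. RefSeq transcripts in the tables numbered 14 for the 10 genes, with more than 1 for Hspd1, Trap1, Clpx and Dnaja3. None of these 8 transcripts passed an exact two-sided permutation test of log2(TPM + 0.1) (lowest p = 0.151, adjusted over the 8 transcripts 0.698). Hspd1 was carried mainly by NM_010477, at 149.5, 212, 194, 192 and 179 TPM in controls and 160.0, 196, 145, 208 and 200.5 TPM in nKO. The second Hspd1 transcript, NM_001356512, made up 18.0% of the gene in controls and 22.6% in nKO, and was highest in nKO 3 at 72.8 TPM. The coding Trap1 transcript NM_026508 made up 94.9% of the gene in controls and 97.0% in nKO, at 79.6 and 72.9 TPM. Its groups overlapped, with 69.7 to 96.8 TPM in controls and 70.4 to 74.4 TPM in nKO (exact permutation p = 0.175, adjusted 0.698). Control 1 was its lowest library. The non-coding NR_152409 ranged from 1.05 to 7.55 TPM in controls, highest in control 1, and was listed at 0 in 1 nKO library. The lack of overlap of Trap1 in TPM thus held for the gene sum and not for the coding transcript. Clpx was mostly NM_011802 (90.3% in controls, 87.2% in nKO) and Dnaja3 mostly NM_001135112 (84.6% and 86.5%).

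Other genes of related function were read from lists chosen by role. Over all tested genes, 52.2% had fitted values below 0. Of 8 tested genes listed as HSP70 partners or J-domain proteins of mitochondria, 7 had fitted values below 0 and 1 above, with a median log2 fold change of -0.043. Of these 8 genes 0 passed 5% or an unadjusted p of 0.05 (edgeR). Pam16, which tethers J-domain proteins to the import motor, stood at 11.3 ± 1.18 CPM in controls and 9.82 ± 1.18 CPM in nKO (SD, n = 5 each; log2 fold change -0.20, SE 0.12). Hscb, a J-domain protein of iron-sulfur cluster transfer, had -0.25 (SE 0.16). Dnajc11, listed as a J-domain protein, had -0.085 (SE 0.087). Of 17 other mitochondrial proteases and peptidases, 9 were below 0 and 8 above (median -0.0061), and 0 passed. Among them Afg3l2, a subunit of the inner membrane AAA proteases, was the 1 gene with an unadjusted p under 0.05 (edgeR), against 5.65% of all tested genes. It stood at 84.6 ± 5.61 and 74.6 ± 3.45 CPM (SD, n = 5 each, log2 fold change -0.18, SE 0.070, edgeR adjusted p = 0.820). Its groups did not overlap, as for 1.38% of all tested genes, with 79.0 CPM in the lowest control and 78.6 CPM in the highest nKO library. Spg7, its partner, had -0.12 (SE 0.12) and the inner membrane peptidase Atp23 had 0.17 (SE 0.16).

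Regulators tied to the response stood within the spread too. Of 15 tested, 6 were below 0 and 9 above, where 52.2% of all tested genes were below 0. Their median log2 fold change was 0.036, and 0 passed 5% or an unadjusted p of 0.05. The transcription factors of the mammalian response are named here for their role. Atf4 had 131, 132, 71.3, 139 and 123 CPM in controls and 96.5, 98.7, 131, 121 and 129 CPM in nKO (log2 fold change -0.047, SE 0.16), with control 3 the lowest. Atf5 stood at 4.84 ± 1.61 CPM in controls and 5.08 ± 1.26 CPM in nKO (SD, n = 5 each; 0.076, SE 0.25), and Ddit3, which encodes CHOP, at 9.51 ± 2.45 and 9.89 ± 2.10 CPM (SD, n = 5 each; 0.058, SE 0.19). Their 95% intervals, -0.40 to 0.31 for Atf4, -0.46 to 0.61 for Atf5 and -0.36 to 0.48 for Ddit3, are wider than those of the chaperones. The mitochondrial deacetylase Sirt3 had the lowest p of the list, at 41.9 ± 4.38 and 35.6 ± 5.81 CPM (SD, n = 5 each; log2 fold change -0.24, SE 0.12; edgeR adjusted p = 0.820). Endog, a mitochondrial nuclease, had -0.50 (SE 0.29), with 7.61 CPM in control 1 and 2.09 to 3.80 CPM elsewhere. The eIF2alpha kinase Eif2ak1 had 0.18 (SE 0.11).

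The cytosolic chaperonin served as a counterpart outside mitochondria. Of its 8 subunits 6 were below 0 and 2 above, where 52.2% of all tested genes were below 0. Their median log2 fold change was -0.052, and 0 passed 5% or an unadjusted p of 0.05 (edgeR). Cct2 had -0.089 (SE 0.065), Cct7 -0.084 (SE 0.062) and Cct5 -0.075 (SE 0.062).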

How the data were processed

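For each library the authors deposited estimated counts and TPM per gene and per RefSeq transcript, per the file headers, which are those of Salmon; per the submitters' processing notes, tools were bcl2fastq, Salmon and DESeq2 and the build mm10, with no versions or roles. RNA was fragmented for 6 minutes, per the labels. A score table of 22 genes, which holds 0 of the members, was not used. Estimated counts were rounded; filterByExpr (minimum count 10, minimum total 15) left 14378 genes. Counts were scaled by TMM and tested with edgeR 4.0.16 (robust quasi-likelihood; R 4.3.3), p adjusted over all genes by Benjamini-Hochberg, and with DESeq2 1.42.0 and limma 3.58.1 (voom) as alternatives. SEs were derived from the estimate and its F statistic. Ratios and transcripts used log2(TPM + 0.1) and exact permutation over 252 regroupings (smallest p 0.00794); correlations used 100000 permutations. Tests were checked on simulated counts. Mean log2 CPM used a prior count of 2. GC content came from GENCODE M21 transcripts with a RefSeq match, promoters and positions from RefSeq (GRCm38.p6). A window was used here for 8 members, all but Hspa9 and Htra2. Replicate numbers only name animals.

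The members and lists were chosen with earlier results of these data known. Named were the 10 members, Atad3a and genes past 5%, up to 3 genes of lowest p per list, and the 5 genes most like Hspd1; other genes are named for their role.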

Additional observations from a re-analysis of the deposited data

Results flagged for a closer look

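In groups of 5, the gap of an end library to its nearest neighbour was compared with the group's range for 44 groups of values; chance flags about 1 in 20 such groups, and 3 were flagged here. Clpp in control 1 stood at 28.8 CPM against 15.2 to 18.2 CPM in the other controls. Lonp1 in nKO 4 stood at 46.0 CPM against 53.5 to 56.5 CPM in the other nKO libraries. Dnaja3 in nKO 4 stood at 63.6 CPM against 68.9 to 70.5 CPM. Control 1 and nKO 4 were the ends of the first principal component. Without both, the log2 fold change was -0.057 for Clpp, -0.066 for Lonp1 and -0.040 for Dnaja3. For Clpp and Lonp1 these libraries were the highest and the lowest, which set the direction of the shift.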

How the results depend on the processing

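Each fit was repeated under 18 alternatives, of which 1 was chosen after seeing the data; for the related genes all 18 were. In all 18, 0 of the 10 members and 0 of the 48 related genes passed 5%, and the median log2 fold change of the members stayed between -0.075 and -0.025. The count over all genes was 2 or 3 apart from DESeq2's Wald test, which called 5. Of 180 repeated member values 160 kept their sign and 20 changed it, all for genes near 0; Trap1, Lonp1, Clpp, Htra2 and Grpel1 kept theirs in all. Hspe1 came to -0.0032 with DESeq2 size factors, -0.0090 with library size alone, -0.0030 with DESeq2's Wald test and -0.0026 without a count filter. Without control 1 and nKO 4, Hspd1 came to -0.076, Hspe1 to -0.095 and Hspa9 to -0.053. In these genes control 1 was the lowest control and nKO 4 the highest nKO library, which set the direction of this shift. Leaving out 1 library at a time gave -0.020 to 0.088 for Hspd1, -0.047 to 0.067 for Hspe1, -0.0069 to 0.082 for Hspa9, -0.044 to 0.035 for Clpx and -0.056 to 0.0072 for Dnaja3. The log2 difference of the Hspe1 to Hspd1 ratio was -0.025 from counts not divided by length, -0.020 without control 1 and nKO 4, and -0.024 to 0.035 with 1 library left out. For Dnaja3 to Hspa9 it was 0.0063 and -0.079 to 0.028 in the last 2 cases. For Grpel1 to Hspa9 it was -0.059 without both and -0.17 to -0.064 with 1 left out (lowest in size without control 3), and for Clpx to Clpp 0.15 to 0.34. The cause of these shifts was not tested. No transcript passed under its 11 alternatives. No paired analysis was possible because the labels give no animal of one genotype the number of an animal of the other.

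The median SE over all genes, 0.12 on the log2 scale, limits these comparisons; of the members, Clpp had the largest SE, 0.19, which was 0.098 without control 1 and nKO 4 and 0.091 with GC trends removed. With 5 animals per group and no stated batch, the spread between animals includes any spread from handling.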
